A study of Mus musculus with 6 samples.

Results

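Inorganic ion exchangers and cotransporters are the membrane proteins of the solute carrier (Slc) families that move sodium, potassium, chloride, bicarbonate, phosphate, sulfate, calcium and protons against or with each other. The set held 58 of 18193 named genes, chosen by symbol alone as the members of the families Slc4a, Slc8a, Slc9a, Slc12a, Slc13a, Slc17a, Slc20a, Slc24a, Slc26a and Slc34a that the array annotation names. The rule uses no measured value, but it was set with earlier results of these data known. Colon RNA of 3 mice bred to lose HDAC1 and HDAC2 in intestinal epithelial cells (floxed Hdac1 and Hdac2 alleles, villin-Cre) was compared with that of 3 control mice. The labels give the controls as wild type. Mice of both groups were untreated, on a normal diet and 4 months old. The villin promoter restricts the Cre recombinase to the intestinal epithelium, so muscle, nerve and immune cells of the same RNA keep both genes. The paper names 3 mice per group, and each group has 3 Affymetrix mouse genome arrays. Whether each array held RNA of 1 mouse is not stated. Values are log2 signals per probe set after RMA, a multi-array normalization by the authors. Differences are HDAC1/2 deficient minus control on that scale. SE is the standard error of the difference from limma, whose variance draws on all probe sets.

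In the colon, sodium chloride is taken up across the luminal membrane by a sodium/proton exchanger working beside a chloride/bicarbonate exchanger, which together absorb salt while water follows. On the opposite, blood-facing membrane, bicarbonate and chloride enter the cell through sodium-coupled cotransporters and feed secretion. Phosphate, sulfate and calcium have their own carriers, and the sodium gradient that drives most of them is set by the sodium/potassium pump.

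Across probe sets, the correlation between arrays was 0.998 to 0.999 within a group and 0.982 to 0.983 between the groups. Hdac1 was lower in deficient colon (log2 fold change -1.30, limma adjusted p = 1.06e-06), whereas Hdac2, at -0.067 to 0.046 over its 3 probe sets, did not pass. Whether these probe sets lie in the deleted part of Hdac2 is not given in the sources used here, so they do not check its deletion. By immunofluorescence the paper found no HDAC1 in the mutant epithelium, but HDAC2 was patchy and remained in some crypts and villi. The labels name colon epithelium, but smooth muscle markers averaged 12.00 to 12.03 on the deficient arrays and 12.45 on the control arrays, while epithelial markers averaged 13.95 to 13.97 on the deficient and 13.85 to 13.87 on the control arrays. Other marker lists moved between the groups as well. Of 12 smooth muscle genes, 12 were lower, of 12 leukocyte genes 11 were higher, of 11 small intestinal enterocyte genes 8 were higher and 1 lower, of 9 squamous genes 7 were lower and 1 higher, and of 8 goblet cell genes 4 were lower and 1 higher. All 6 measured pancreatic acinar genes were higher, at list means of 11.96 to 12.01 on deficient and 5.99 to 6.23 on control arrays. Of the sex-linked genes, 3 Y-linked genes were higher and Xist lower. Xist, a transcript of female cells, still averaged 12.02 (SD 0.033) on deficient arrays, against 12.85 on control arrays. Y-linked Eif2s3y averaged 8.34 (SD 0.14) on deficient and 4.09 on control arrays. The deficient arrays thus carried both kinds of signal, and whether they hold RNA of more than 1 mouse was not tested. In bulk RNA, fewer cells of a type and less RNA per cell cannot be told apart, and the part of these cells and of sex in the results was not tested.

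Changed members were mostly lower in HDAC1/2 deficient colon. Of the 58 genes, 18 fell, 3 rose and 37 did not pass limma at an adjusted p under 0.05, where 28.4% of all 18193 genes fell, 21.9% rose and 50.4% passed in either direction. The members' shares were 31.0% lower and 5.17% higher. Falls of more than 2-fold were found in 5 members and rises of more than 2-fold in 0, against 1.82% and 2.25% of all genes. These 5 were the phosphate transporter genes Slc20a1 and Slc34a2, the sodium bicarbonate cotransporter gene Slc4a4, the sulfate transporter gene Slc26a2 and the sodium/calcium exchanger gene Slc8a1. The rises were those of Slc9a3, the luminal sodium/proton exchanger of salt absorption, Slc13a2, a dicarboxylate transporter, and Slc9a7, a sodium/proton exchanger of the Golgi. The median log2 fold change was -0.088 over the members and -0.022 over all genes. The groups did not overlap in 32 members, or 55.2%, against 60.9% of all genes. The members that did not pass ranged from -0.25 (Slc26a4) to 0.22 (Slc8a3) on the log2 scale.

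**Figure D1:**
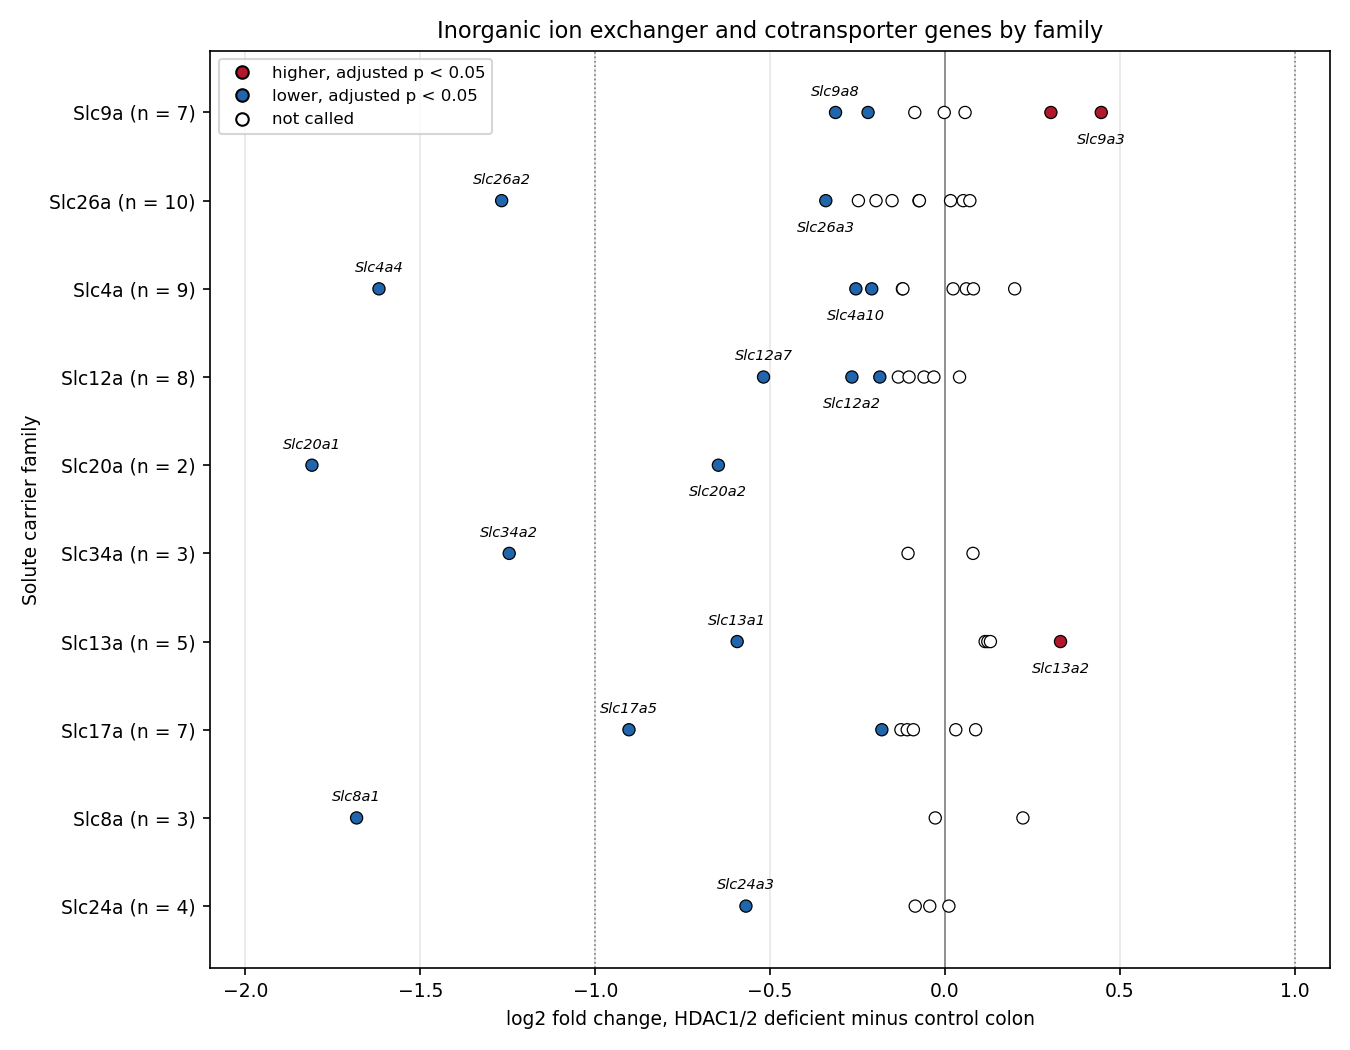
The horizontal axis is the log2 difference, HDAC1/2 deficient minus control, from 3 arrays each, for the 58 genes by solute carrier family (rows, with the number of genes). Each point is 1 gene by its brightest probe set, filled where it passed limma at an adjusted p under 0.05, and dotted lines mark 2-fold. The 5 points left of the lower line are Slc20a1, Slc8a1, Slc4a4, Slc26a2 and Slc34a2, and 0 points lie right of the upper line.

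Many members gave signals in the lower part of the scale, and calls were unevenly spread over it. Of the 18 members whose mean signal lay above the median of all genes, 12 fell and 2 rose, where 39.6% of all genes above that median fell and 30.5% rose. Of the 40 members at or below it, 6 fell and 1 rose, where 17.2% and 13.4% of all such genes did. The split was chosen after the data were seen.

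Promoter windows are shown for 4 of the genes that fell most and for Slc9a3, the member that rose most. Slc26a2 (-1.27), which fell more than the printed Slc34a2 (-1.25), had no window among those used here. Each runs 5′ to 3′ from 250 bases before to 50 after the first start that RefSeq lists (build GRCm38.p6), and capitals mark GC boxes (GGGCGG, or CCGCCC on the other strand) and TATA boxes (TATAAA, or TTTATA). Slc20a1 and Slc4a4 have a second listed start that is not printed.
Slc20a1 (chr2:129198523-129198822, plus strand): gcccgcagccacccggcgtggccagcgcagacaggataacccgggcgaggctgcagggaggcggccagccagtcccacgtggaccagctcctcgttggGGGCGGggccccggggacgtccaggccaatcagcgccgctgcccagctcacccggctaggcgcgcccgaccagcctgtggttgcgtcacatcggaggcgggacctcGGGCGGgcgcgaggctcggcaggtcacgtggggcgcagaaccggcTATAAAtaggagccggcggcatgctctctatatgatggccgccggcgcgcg
Slc4a4 (chr5:88887010-88887309, plus strand): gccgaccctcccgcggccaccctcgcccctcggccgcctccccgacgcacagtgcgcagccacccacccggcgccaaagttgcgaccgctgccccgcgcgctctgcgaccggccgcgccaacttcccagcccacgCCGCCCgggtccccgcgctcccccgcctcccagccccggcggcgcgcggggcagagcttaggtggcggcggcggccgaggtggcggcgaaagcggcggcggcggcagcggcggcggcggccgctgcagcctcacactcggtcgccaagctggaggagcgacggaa
Slc34a2 (chr5:53049103-53049402, plus strand): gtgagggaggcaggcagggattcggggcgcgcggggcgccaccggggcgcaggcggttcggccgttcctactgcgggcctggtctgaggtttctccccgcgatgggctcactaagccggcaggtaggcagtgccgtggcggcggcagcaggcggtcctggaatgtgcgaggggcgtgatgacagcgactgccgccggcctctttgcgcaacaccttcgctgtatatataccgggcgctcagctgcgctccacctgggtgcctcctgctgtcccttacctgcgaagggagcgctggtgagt
Slc8a1 (chr17:81738338-81738637, minus strand): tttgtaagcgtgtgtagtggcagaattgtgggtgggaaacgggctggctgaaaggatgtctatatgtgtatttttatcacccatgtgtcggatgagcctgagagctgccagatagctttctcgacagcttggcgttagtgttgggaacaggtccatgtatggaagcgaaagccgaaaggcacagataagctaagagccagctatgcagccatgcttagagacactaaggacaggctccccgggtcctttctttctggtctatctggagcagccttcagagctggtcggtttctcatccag
Slc9a3 (chr13:74121163-74121462, plus strand): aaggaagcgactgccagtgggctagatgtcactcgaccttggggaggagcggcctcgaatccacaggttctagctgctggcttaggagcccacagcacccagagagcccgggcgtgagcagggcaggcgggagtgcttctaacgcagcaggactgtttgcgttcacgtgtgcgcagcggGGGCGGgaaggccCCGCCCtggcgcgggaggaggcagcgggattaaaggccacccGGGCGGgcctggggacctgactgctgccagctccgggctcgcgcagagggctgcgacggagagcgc

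The windows of the falling genes differ among themselves. Slc20a1 has 2 GC boxes, a TATA box and 36 CpG dinucleotides. Slc4a4 has 1 GC box and 50 CpG dinucleotides, Slc34a2 has no GC box and 30, and Slc8a1 has none and 9. The window of Slc9a3 holds 3 GC boxes and 25 CpG dinucleotides, and the median over all 32851 windows is 7. Of 58 members, 46 had a window in the table. A GC box stood in any window of 9 of the 13 matched genes that fell and of 2 of the 3 that rose. Over all 46 matched members it stood in 25. No such count by gene was made over all genes. Counted by window, 48.3% of the members' 60 windows held one, against 35.7% of all windows. A match is a description of letters and was not set against binding data.

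Sodium phosphate cotransporter genes carried the largest fall of the set. Slc20a1 encodes a widely expressed phosphate importer that also serves as a retrovirus receptor. Its log2 signals were 11.17, 11.08 and 11.08 in deficient colon, against 12.93, 12.90 and 12.94 in control colon. All deficient arrays lay far below all control arrays, a 3.51-fold difference (log2 difference -1.81, SE 0.044, limma adjusted p = 1.63e-07). Its other 2 probe sets also fell, at -1.52 and -0.24, and the mean of the 3 gave -1.19. Slc20a2, its close relative, had signals of 7.87, 7.88 and 7.95 in deficient and 8.56, 8.50 and 8.57 in control colon, again without overlap (log2 difference -0.65, SE 0.045, limma adjusted p = 2.36e-05). A second Slc20a2 probe set, brighter than the first on the deficient arrays (8.06 against 7.90), did not pass, at -0.04. The mean of both was -0.34.

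Slc34a2, the phosphate cotransporter of luminal membranes in intestine and lung, was the third phosphate carrier to fall. It was at 8.59, 8.66 and 8.66 in deficient colon and at 9.86, 9.88 and 9.90 in control colon. The deficient mean was 2.37-fold lower and no arrays overlapped (log2 difference -1.25, SE 0.042, limma adjusted p = 7.86e-07), on the only probe set of the gene. Slc34a1 and Slc34a3, whose products reabsorb phosphate in the kidney, did not pass, with log2 fold changes of 0.080 and -0.11. By brightest probe sets, phosphate carriers of both families fell in 3 of 5 genes, where 28.4% of all genes fell. Slc20a2 counts here on 1 of its 2 probe sets.

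Among bicarbonate transporters (Slc4a), 3 of 9 genes fell and none rose past the test. The share that fell was 33.3%, where 28.4% of all genes fell and 21.9% rose. Slc4a4 encodes the electrogenic sodium bicarbonate cotransporter of the blood-facing membrane. It was at 9.98, 9.96 and 9.94 in deficient colon and at 11.56, 11.58 and 11.59 in control colon, a 3.07-fold difference (log2 difference -1.62, SE 0.039, limma adjusted p = 1.60e-07). The spread between arrays, with SDs of 0.023 in deficient and 0.017 in control colon, was small beside this. Of its 5 probe sets 4 fell, at -1.20 to -1.62, and the fifth, near the lower end of the scale, was at 0.071. Slc4a2, the chloride/bicarbonate exchanger found in most cells, had signals of 10.22, 10.22 and 10.16 in deficient and 10.12, 10.07 and 10.16 in control colon (0.081, limma adjusted p = 0.198).

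Slc4a1, the anion exchanger of red cells, had 5.94, 5.90 and 5.68 in deficient and 5.70, 5.95 and 5.81 in control colon. These overlapped (0.023, limma adjusted p = 0.866), and of the 4 measured erythroid markers Ermap passed (-2.77), while Hba-a1, Alas2 and Epb42 did not pass. The remaining falls were small. Slc4a10, a neuronal sodium-driven bicarbonate transporter, was at 3.97 to 4.09 in deficient and 4.22 to 4.32 in control colon, near the lowest values on the arrays (-0.25), and Slc4a3, an anion exchanger of heart and brain, fell by 0.21 on the log2 scale. Slc4a3 had a second probe set at 0.017 and a mean over both of -0.096 that did not pass, and its call was lost without control replicate 3 (limma adjusted p = 0.0597) or without deficient replicate 1 or 3 (0.0655 and 0.0643). The enteric neuron markers were lower in 6 of 11 genes, and their part in these values was not tested. The largest rise in the family, Slc4a11, did not pass (0.20, limma adjusted p = 0.0914).

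The anion exchangers of the Slc26a family were split by gene, with 2 of 10 falling and 8 not past the test. That is 20% lower, against 28.4% of all genes. Slc26a2 encodes a sulfate transporter that supplies sulfate for proteoglycans and mucins. Its signals were 12.03, 12.01 and 12.04 in deficient colon and 13.26, 13.29 and 13.32 in control colon. The deficient mean was 2.41-fold lower, with no overlap (log2 difference -1.27, SE 0.040, limma adjusted p = 5.41e-07), and all 3 of its probe sets fell, at -1.27 to -1.37.

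Slc26a3, the chloride/bicarbonate exchanger of the luminal membrane whose loss causes congenital chloride diarrhea in humans, fell much less. It was at 13.66, 13.57 and 13.66 in deficient colon, against 13.99, 13.98 and 13.94 in control colon (log2 difference -0.34, SE 0.044, limma adjusted p = 5.47e-04). The groups did not overlap. Its signal lay close to the highest value on any array, 14.85, and the next 2 probe sets fell, at -0.53 and -0.41, while the dimmest did not pass (-0.03). Without probe sets of shared sequence, the gene's value was -0.53. Slc26a6, another luminal anion exchanger, had 6.82, 6.82 and 7.02 in deficient and 6.77, 6.88 and 6.85 in control colon, which overlapped (0.052, limma adjusted p = 0.588). Of the others, Slc26a4 had the most negative value (-0.25, limma adjusted p = 0.0525) and Slc26a5, the motor protein of cochlear hair cells, the highest (0.071), and neither passed.

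**Figure D2:**
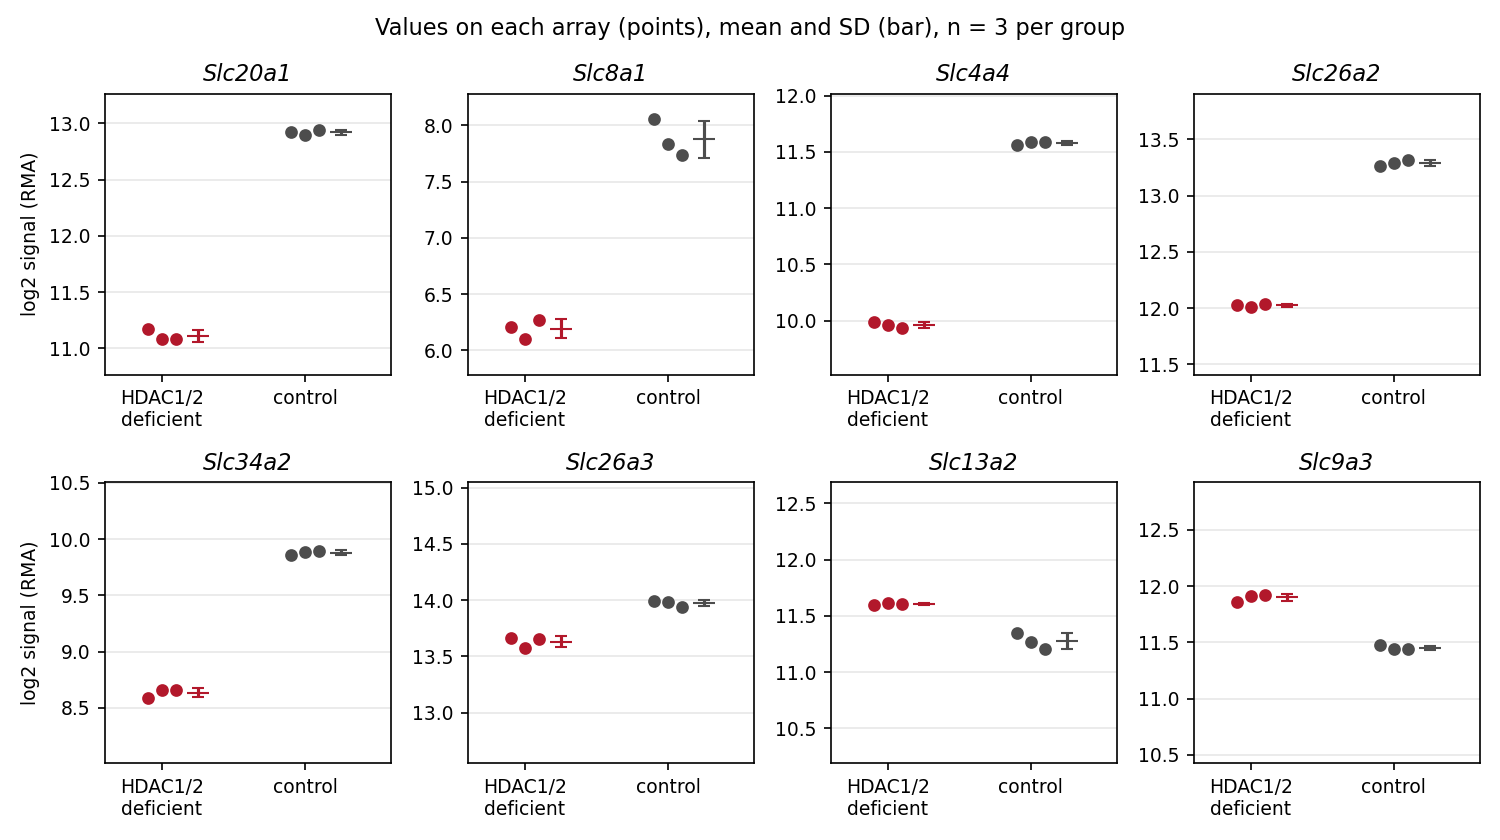
Log2 RMA signals of 8 genes on each array (points, vertical axis), with the mean and SD over 3 arrays (bar), HDAC1/2 deficient left and control right. Every panel spans an equal log2 range. Slc20a1, Slc8a1, Slc4a4, Slc26a2, Slc34a2 and Slc26a3 are lower and Slc13a2 and Slc9a3 higher on all 3 deficient arrays.

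Sodium/proton exchanger genes (Slc9a) went both ways: 2 of 7 rose, 2 fell and 3 did not pass. These shares, 28.6% each way, stand beside 21.9% higher and 28.4% lower of all genes. Slc9a3, the luminal exchanger that carries most of the gut's sodium absorption, was at 11.86, 11.91 and 11.92 in deficient and at 11.47, 11.44 and 11.44 in control colon. It rose 1.36-fold (log2 difference 0.45, SE 0.041, limma adjusted p = 8.63e-05) with no overlap, and its other, dimmer probe set was at 0.22 and did not pass. Slc9a2, a second luminal exchanger, fell slightly, with 11.22, 11.19 and 11.16 in deficient and 11.38, 11.42 and 11.43 in control colon (log2 difference -0.22, SE 0.041, limma adjusted p = 0.00350). The luminal partners of salt absorption, Slc9a3 and Slc26a3, had opposite signs on their brightest probe sets.

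The exchangers of intracellular membranes were also split. Slc9a7 had 6.66, 6.72 and 6.58 in deficient and 6.39, 6.41 and 6.26 in control colon (0.30, limma adjusted p = 0.00475). This gene lies on the X chromosome, and the part of the sex-linked differences between the groups in its value was not tested. Slc9a8, found in endosomes and at the luminal membrane, had 7.70, 7.51 and 7.46 in deficient and 7.90, 7.84 and 7.86 in control colon (-0.31, limma adjusted p = 0.00742). Its other 3 probe sets did not pass, at 0.015 to 0.13, and the mean of all 4 was -0.035 (limma adjusted p = 0.449). Slc9a9, the endosomal exchanger, was at -0.0021.

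Cation-chloride cotransporter genes (Slc12a) fell in 3 of 8 cases and rose in none. The share that fell was 37.5%, where 28.4% of all genes fell and 21.9% rose. Slc12a2, the sodium-potassium-chloride cotransporter that loads secretory cells with chloride from the blood side, had 13.21, 13.27 and 13.24 in deficient and 13.55, 13.50 and 13.46 in control colon (log2 difference -0.27, SE 0.043, limma adjusted p = 0.00170). The groups did not overlap. Its 2 other probe sets, at lower signals, fell further, at -0.72 and -0.82, and the mean of the 3 was -0.60. Slc12a7, a potassium-chloride cotransporter of the exit route, had 10.39, 10.53 and 10.43 in deficient and 10.99, 10.95 and 10.97 in control colon (log2 difference -0.52, SE 0.049, limma adjusted p = 1.01e-04), and its second probe set also fell (-0.22). Slc12a9 was the weakest of the calls, at -0.19 (limma adjusted p = 0.0293), and it was lost without control replicate 1 or 3 or deficient replicate 1 or 3 (limma adjusted p from 0.0607 to 0.0989). Slc12a1 and Slc12a3, the salt carriers of the kidney, had -0.10 and -0.03 and did not pass.

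Among carriers that exchange sodium for calcium, 1 of 3 Slc8a and 1 of 4 Slc24a genes fell. These are 33.3% and 25%, against 28.4% of all genes. Slc8a1 encodes the exchanger that extrudes calcium from muscle and other excitable cells. It was at 6.21, 6.10 and 6.27 in deficient colon and at 8.06, 7.83 and 7.73 in control colon, 3.21-fold lower (log2 difference -1.68, SE 0.088, limma adjusted p = 5.86e-06). Only this probe set moved so far. Another fell (-0.29, limma adjusted p = 0.00932) and 2 did not pass, at -0.29 and 0.14, and the mean of the 4 was -0.53. Slc24a3, a potassium-dependent exchanger with a single probe set, had 9.89, 9.92 and 9.94 in deficient and 10.51, 10.49 and 10.46 in control colon (log2 difference -0.57, SE 0.040, limma adjusted p = 2.49e-05).

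Both genes are known from smooth muscle, and smooth muscle markers moved in the same direction. The 12 marker genes lay at -0.13 to -0.69, all past the test, with a median of -0.42. Kit, a receptor of the pacemaker cells of the gut wall, fell by 0.99 on the log2 scale. The fall of Slc8a1 on its brightest probe set was larger than that of any of the 12 and that of Slc24a3 lay within their range. The part of a lower muscle content in either value was not tested.

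**Figure D3:**
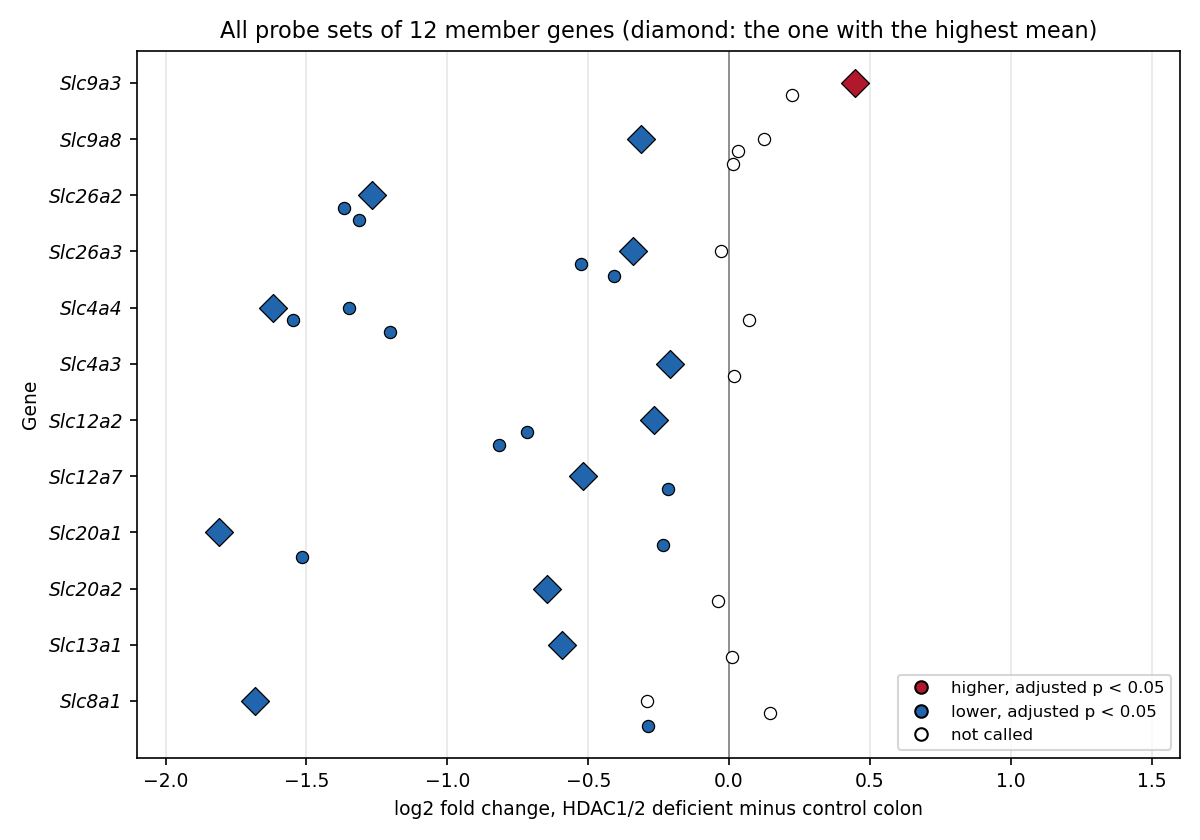
The horizontal axis is the log2 difference, HDAC1/2 deficient minus control, from 3 arrays each, for every probe set of 12 genes (rows). Diamonds are the brightest probe sets, circles the others, shifted down for sight, and filled symbols passed limma at an adjusted p under 0.05. The 3 probe sets of Slc26a2 lie together at -1.27 to -1.37, whereas those of Slc8a1 run from -1.68 to 0.14.

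Over all members, 111 probe sets carried a symbol of the set alone. Of these, 33 fell, 6 rose and 72 did not pass, and no gene had probe sets that passed in both directions. Another 5 genes passed only on a probe set other than the one with the highest mean. These were Slc12a8 (0.24), Slc13a3 (0.29) and Slc17a9 (0.23), which were higher, and Slc26a7 (-0.33) and Slc8a2 (-0.20), which were lower.

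Sodium-coupled sulfate and carboxylate transporters (Slc13a) split into 1 rise and 1 fall among 5 genes. That is 20% each way, against 21.9% higher and 28.4% lower of all genes. Slc13a2, which takes up citrate and succinate from the lumen, was at 11.60, 11.61 and 11.61 in deficient and 11.35, 11.27 and 11.21 in control colon (log2 difference 0.33, SE 0.048, limma adjusted p = 0.0010). Slc13a1, the sulfate carrier of kidney and ileum, was at 6.60, 6.84 and 6.50 in deficient and 7.26, 7.20 and 7.26 in control colon (log2 difference -0.59, SE 0.084, limma adjusted p = 8.79e-04). Neither gene's groups overlapped. The second Slc13a1 probe set was at 0.0093, and the mean of both was -0.29. Small intestinal enterocyte markers, of which 8 of 11 were higher, included Fabp6 (4.49) and Slc10a2 (1.40), both genes of the ileum, while Slc5a1, the sodium glucose cotransporter, was lower (-0.54) and Lct and Apoa4 did not pass. Their part in these values was not tested.

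Of 7 members of the Slc17a family, 2 fell, or 28.6% against 28.4% of all genes. Slc17a5 encodes sialin, which exports sialic acid from lysosomes together with protons. It had 9.43, 9.26 and 9.36 in deficient and 10.27, 10.23 and 10.26 in control colon, 1.87-fold lower (log2 difference -0.90, SE 0.053, limma adjusted p = 1.05e-05). Slc17a7, a vesicular glutamate transporter of neurons, fell by 0.18 on the log2 scale (limma adjusted p = 0.0226), a call lost with trend and robust eBayes (limma adjusted p = 0.0652) and without control replicate 2 or 3 or deficient replicate 1 or 2 (limma adjusted p from 0.0545 to 0.0808). Slc17a9, the vesicular nucleotide transporter, had the highest value of the family and did not pass on its brightest probe set (0.088).

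Proteins that control the exchangers included larger rises than any member. Of 26 measured regulators, 7 rose, 11 fell and 8 did not pass, with a median log2 difference of -0.077. These shares, 26.9% higher and 42.3% lower, stand beside 21.9% and 28.4% of all genes, or 30.5% and 39.6% of those above the median signal. The falls numbered 7 without control replicate 3 or deficient replicate 3, and 6 as means over probe sets. Slc9a3r1, the scaffold that holds Slc9a3 and other carriers at the luminal membrane, had 13.43, 13.42 and 13.43 in deficient and 12.86, 12.85 and 12.81 in control colon (log2 difference 0.59, SE 0.039, limma adjusted p = 1.91e-05), and its 3 probe sets rose by 0.59 to 0.60. Its relative Slc9a3r2 did not pass (-0.12).

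The kinases Sgk1 and Sgk2 moved apart. Sgk1, which aldosterone and glucocorticoids induce and which stimulates sodium uptake, was at 11.95, 11.81 and 11.91 in deficient and 12.74, 12.74 and 12.70 in control colon (-0.84, limma adjusted p = 9.75e-06). Sgk2, its epithelial relative, was at 11.50, 11.59 and 11.49 in deficient and 9.85, 9.90 and 9.87 in control colon (1.65, limma adjusted p = 2.71e-07). Each had a single probe set and groups that did not overlap.

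The regulator list also held 4 genes of the guanylin route, of which 2 rose, 1 fell and 1 did not pass. In it luminal peptides activate the receptor guanylate cyclase Gucy2c, and a cyclic GMP-dependent kinase then favors chloride secretion and restrains Slc9a3. The kinase gene Prkg2 was at 10.03, 10.05 and 9.85 in deficient and 7.50, 7.24 and 6.96 in control colon (log2 difference 2.74, SE 0.13, limma adjusted p = 3.44e-06), and its 3 probe sets rose by 1.78 to 3.22. Uroguanylin, Guca2b, was at 11.20, 11.22 and 11.20 in deficient and 10.24, 10.16 and 10.22 in control colon (1.01, limma adjusted p = 2.11e-06). Guanylin, Guca2a, fell by 0.56 on the log2 scale and Gucy2c did not pass (0.11). Of the 5 listed kinases of the WNK route to Slc12a carriers, Wnk4 rose (0.62) and Stk39 fell (-0.66), while Oxsr1 did not pass (-0.04). On their brightest probe sets Wnk2 (-0.18) and Wnk1 (-0.13) fell, but both were called in both directions. Another Wnk1 probe set rose (0.47, limma adjusted p = 0.0106), as did another of Wnk2 (0.16, limma adjusted p = 0.0357). The remaining probe sets, at 0.17 for Wnk1 and 0.015 for Wnk2, did not pass.

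**Figure D4:**
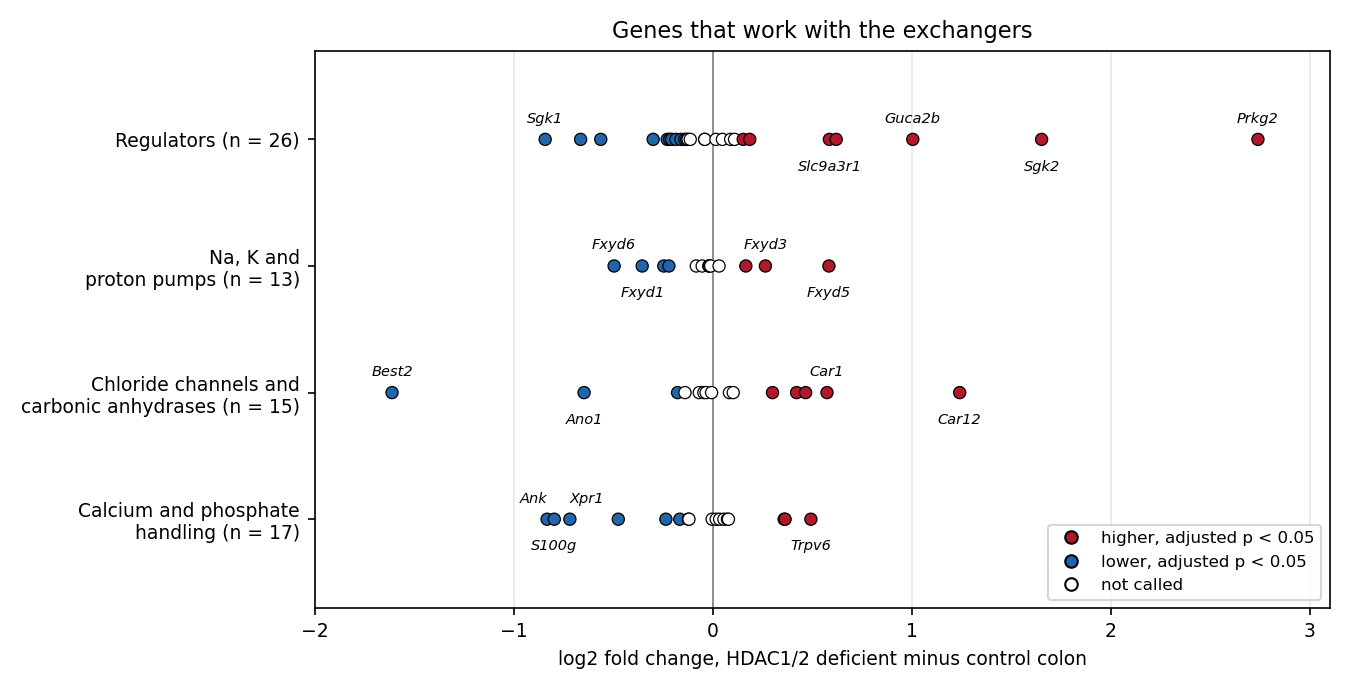
The horizontal axis is the log2 difference, HDAC1/2 deficient minus control, from 3 arrays each, for genes in 4 lists of proteins that work with the exchangers (rows, with the number of genes). Points are genes by their brightest probe set, filled where limma's adjusted p was under 0.05. Prkg2 at 2.74 and Best2 at -1.61 are the ends of the range.

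Of 15 chloride channels and carbonic anhydrases, 5 rose, 3 fell and 7 did not pass, or 33.3% higher and 20% lower against 21.9% and 28.4% of all genes. All but Car7 and Car14 lay above the median signal of all genes, where 30.5% rose and 39.6% fell. Best2, an anion channel of colonic goblet cells that passes bicarbonate, was at 9.03, 8.95 and 9.08 in deficient and 10.67, 10.63 and 10.60 in control colon (-1.61, limma adjusted p = 4.31e-07). Goblet cell markers were lower in 4 of 8 genes and higher in 1, with list means of 13.62 to 13.64 on deficient and 13.79 to 13.80 on control arrays, and their part in this value was not tested. Car12, a membrane carbonic anhydrase, rose (1.24, limma adjusted p = 3.83e-06), on 2 of its 3 probe sets, and the mean over them was 0.51. Car1, a cytosolic carbonic anhydrase of the colon, rose by 0.57 and Ano1, a calcium-activated chloride channel also used as a marker of pacemaker cells, fell by 0.65 on the log2 scale. Cftr, the chloride channel of cystic fibrosis, did not pass (0.10, limma adjusted p = 0.122).

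Of 17 other genes of calcium and phosphate handling, 3 rose, 6 fell and 8 did not pass, or 17.6% higher and 35.3% lower against the same 21.9% and 28.4% of all genes. Xpr1, which exports phosphate from cells, was at 10.56, 10.63 and 10.55 in deficient and 11.31, 11.31 and 11.27 in control colon (-0.72, limma adjusted p = 9.86e-06), and 5 of its 7 probe sets fell, with a mean of -0.40 over all 7. Ank, a membrane protein that releases pyrophosphate or its precursor, fell (-0.83, limma adjusted p = 6.67e-06). S100g, a cytosolic calcium buffer, fell (-0.80) while Trpv6, a luminal calcium channel, rose (0.49). Of 13 genes of sodium, potassium and proton pumps, 3 rose (23.1%), 4 fell (30.8%) and 6 did not pass. The 4 largest changes were in pump modulators of the Fxyd family, namely Fxyd5 (0.58), Fxyd6 (-0.50), Fxyd1 (-0.35) and Fxyd3 (0.26).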

How the data were processed

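Colon RNA of 3 HDAC1/2 deficient and 3 control mice was measured on Affymetrix mouse genome arrays. The authors background-corrected and normalized the arrays by RMA in Flexarray 1.6.1 and deposited log2 values. Groups and replicate numbers came from the sample titles. After 64 control probe sets were left out, 45037 entered one 2-group model in limma (3.58.1, under R 4.3.3) with lmFit and eBayes, and Benjamini-Hochberg adjustment covered every probe set tested. Genes were named from the platform annotation (34945 probe sets with 1 symbol, 932 with several and 9160 with none, the last 2 kinds unused), and each is represented by its brightest probe set (mean of 6 arrays). Members and lists were chosen with earlier results of these data known, so counts over them carry no test.

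By rule, values on every array are given for members past an adjusted p of 0.05 and 2-fold and for listed members with textbook roles in colonic transport (Slc4a7 was not analysed here), other members are named as the largest rise or fall of a family, and of each partner list the 4 largest changes are named. All other names, and the values on every array of other genes, were chosen after their values were seen. Alternatives were the t-test of the methods, other normalizations, a filter on dim probe sets, trend and robust eBayes, array weights, omission of probe sets with shared sequence, means over probe sets, the replicate number as a block and leaving out each array. The fit was tested on simulated data. The number of arrays limits the precision. The p-values rest on the spread between the 3 arrays per group, moderated by eBayes with that of all probe sets. Whether this is a spread between single mice was not tested. Scan dates were not given in the sources used here, so no batch was tested.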

Additional observations from a re-analysis of the deposited data

How the results depend on the processing

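Slc9a3r1, Wnk4, Stk39, Guca2a and other genes named outside the rule were not run under the alternatives, except members past the test, which were all run. Of the 37 genes past the test that were run, 32 kept their direction and their call under every alternative in which they were tested. Called values that changed sign numbered 0. The 5 others, Slc12a9, Slc13a1, Slc17a7, Slc4a3 and Slc9a8, were lost after Benjamini-Hochberg adjustment of the methods' t-test, and Slc9a8 and Slc4a3 also as means over probe sets. Members called higher numbered 3, and 5 with trend and robust eBayes or with means over probe sets. Members called lower numbered 18, and 14 (that t-test) to 21 (means over probe sets), with 15 to 19 when single arrays were left out. The 5 falls of more than 2-fold became 4 with means over probe sets, where Slc8a1 was at -0.53. Of the regulators, 11 fell, but 6 with means over probe sets and 7 to 9 without single arrays, the lowest count being that without control replicate 3 or deficient replicate 3. The cause of these changes was not tested.

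Replicate numbers are only names here, since the deviations of same-numbered arrays correlated at 0.096, 0.064 and -0.026. Of those not called, Slc8a3 and Slc17a9 passed under some alternatives. With the replicate block, 4 members rose and 18 fell, Slc12a9 was lost (adjusted p = 0.0658) and Slc4a11 gained (0.0490). On RMA arrays signals near background or near the top of the scale limit how large a difference can appear.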
